A study of Mus musculus with 8 samples.

Results

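The subject is a group of 8 genes for structural proteins, ion carriers and an ion channel of pigment cells: Pmel, Mlana, Gpnmb, Slc45a2, Slc24a5, Slc24a4, Oca2 and Trpm1. Their chromatin was followed through the accessible regions of a deposited coverage table of mouse melanoma lines. A region belonged to a gene when it lay inside the gene's span in the GRCm38 build, or within 50 kb of it with that gene as the nearest protein-coding gene end. This rule gave 89 of the 148664 regions, 64 of them inside a gene, and 88 had enough counts to be tested, against 140329 of all regions. Pmel and Mlana had 5 regions each, Slc45a2 had 4, Slc24a5 had 10, Gpnmb had 12, Trpm1 and Slc24a4 had 17 each and Oca2 had 19. Regions are numbered along the chromosome within each gene, so that Oca2_1 is the region of Oca2 with the lowest coordinate.

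The assay was ATAC-seq, in which a transposase inserts sequencing adapters into open chromatin, so that the read count of a region measures how accessible it is. The melanoma lines were grown from lymph node cells of mice that developed melanoma of the skin at about 25 to 30 weeks of age. Lines 112 and 113 carried a STAT3 knockout (Stat3∆), and lines 119 and 73 were wild type (Stat3fl, in which Stat3 is flanked by recombination sites). Each line was assayed in 2 libraries of 50000 cells, labelled as biological replicates. Each line is called a clone in the sample labels and a primary pool in the growth protocol. The promoter that drove the deletion and the alleles that drove the tumors are not given in the sources used here. The sample titles also carry a p number, which was 18 for line 112, 44 for 113, 14 for 119 and 68 for 73, and whose meaning the labels do not give. Genotype was varied between lines and not within a line, so an effect of STAT3 and any other difference between 2 lines of each genotype cannot be told apart.

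Melanin is made in the melanosome, an organelle related to the lysosome, on fibrils formed by fragments of the Pmel protein. The acidity and ion content of the organelle govern the activity of tyrosinase, the enzyme that starts melanin synthesis. Slc45a2, Slc24a5 and Oca2 are carriers or channels that act on this ion balance, and loss of each causes lighter skin, hair or eyes. Many genes of this group are targets of Mitf, the transcription factor that directs the melanocyte program, which binds E-box motifs.

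Library totals ranged from 2697546 counts (line 112, replicate 2) to 7464336 counts (line 119, replicate 1), and the deposited peak lists held 20387 to 94906 peaks for these same 2 libraries. The 12 regions of Stat3 summed to 86.4 and 78.6 counts per 1000000 (CPM) in knockout lines 112 and 113 and to 57.0 and 59.5 CPM in wild-type lines 119 and 73. The deleted part of Stat3 is not given in the labels, so these values do not check the genotype. Cell type markers were read at the strongest region within 1 kb of either end of the gene, with no end of another gene nearer. Of 9 melanocyte markers 8 had such a region, Pmel being the exception. Summed CPM over these markers ran from 252 to 278 for line 113, 156 to 188 for 112, 111 to 118 for 119 and 71.7 to 74.2 for 73. In line 73 the region at Sox10, a transcription factor of the neural crest lineage, stood at 3.09 CPM and that at Pax3 at 6.28 CPM, each below the other 3 lines. Tyr, Dct, Mlana and Mc1r were also lowest there. The region read for Mitf, at its first start, was instead highest in line 73, at 39.1 CPM against 18.8 to 36.1. At the last start of Mitf line 73 was lowest, at 0.662 CPM against 0.725 to 17.9. At the middle start line 73 was not lowest, at 2.103 CPM against 1.17 to 4.09. Tyrp1 was higher in line 73 (2.83 CPM) than in 119 (1.02). Ptprc, the marker of all leukocytes, and Csf1r, the macrophage receptor, had no such region. Summed T cell markers followed the melanocyte markers in their order of lines, with 25.2 to 37.2 CPM in line 112, 43.3 to 43.95 in 113, 18.9 to 22.1 in 119 and 5.28 to 9.22 in 73. Of the 4 T cell markers 2 had such a region: Cd2, at 28.3, 41.3, 19.4 and 5.25 CPM in lines 112, 113, 119 and 73, made up most of the sum, Cd3e stood at 1.14 to 2.97 CPM, and Cd3g and Lck had none. Summed macrophage markers were 14.03 to 17.1 CPM in lines 112, 113 and 119 and 70.9 to 73.1 CPM in line 73, of which Cd14 made up 53.2 CPM. Summed fibroblast markers were 37.2 to 48.3 CPM in lines 112, 113 and 119 and 89.2 to 90.6 CPM in line 73. Among them Pdgfra ran the other way, at 13.8, 15.9, 1.83 and 1.22 CPM in lines 112, 113, 119 and 73, and Lum was not highest in line 73. The part of these marker differences in the results below was not tested.

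Promoter sequences were held in the RefSeq table (GRCm38.p6) for 5 of the 8 genes, in 6 windows. The 4 shown here are the pair of Trpm1 starts, of which only the second lay under a region, and the starts of Slc24a5 and Gpnmb. At Slc24a5 line 73 stood apart, and at Gpnmb all 8 libraries had a peak. Slc24a4, whose start also lay under a region, and Oca2, whose start did not, are not shown. Each run gives the 250 bases before the start, on the plus strand. Capitals mark matches to the E-box motif CATGTG and to the related E-box motif CACGTG. They also mark the longer forms that Mitf prefers, TCATGTG and, with the other core, TCACGTG. Matches to TGANTCA, the pattern searched for AP-1, in which N is any base, are in capitals too.
Trpm1, first start, chr7:64153585-64153834: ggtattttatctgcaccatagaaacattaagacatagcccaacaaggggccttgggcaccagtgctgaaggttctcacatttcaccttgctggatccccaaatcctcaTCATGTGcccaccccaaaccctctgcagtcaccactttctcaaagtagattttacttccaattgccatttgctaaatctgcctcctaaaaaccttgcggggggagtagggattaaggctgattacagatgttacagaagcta
Trpm1, second start, chr7:64185209-64185458: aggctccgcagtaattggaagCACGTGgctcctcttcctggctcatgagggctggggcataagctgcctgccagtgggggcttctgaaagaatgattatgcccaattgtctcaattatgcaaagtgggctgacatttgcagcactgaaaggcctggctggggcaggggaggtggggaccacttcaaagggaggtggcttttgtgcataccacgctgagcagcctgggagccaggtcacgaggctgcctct
Slc24a5, chr2:125067877-125068126: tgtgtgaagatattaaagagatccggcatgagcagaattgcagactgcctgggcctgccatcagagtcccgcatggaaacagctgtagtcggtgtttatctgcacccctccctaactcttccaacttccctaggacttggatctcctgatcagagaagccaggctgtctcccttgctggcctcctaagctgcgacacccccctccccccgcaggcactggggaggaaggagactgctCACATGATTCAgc
Gpnmb, chr6:49036268-49036517: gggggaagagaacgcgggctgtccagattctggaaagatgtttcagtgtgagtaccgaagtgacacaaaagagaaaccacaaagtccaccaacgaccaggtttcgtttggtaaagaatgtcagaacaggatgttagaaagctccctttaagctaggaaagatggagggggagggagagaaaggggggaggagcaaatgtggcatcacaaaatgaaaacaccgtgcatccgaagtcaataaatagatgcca

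Both strands of the whole windows, from 250 bases before to 50 after a start, were searched. In Slc24a5 the run of capitals held TCATGTG on the minus strand from -13 to -7, counted from the start. Overlapping it, TGATTCA matched the AP-1 pattern from -9 to -3. The first start of Trpm1 had TCATGTG from -142 to -136, and the second start had CACGTG from -229 to -224 and CATGTG on the minus strand from 37 to 42, after the start. Gpnmb had no E-box match in its window. It had TGACTCA, a match to the AP-1 pattern, from 9 to 15 bases after the start, outside the run shown. Slc24a4 had CACGTG from -93 to -88, and Oca2 had CATGTG on the minus strand from -186 to -181. Over all 32851 windows of 300 bases in the table, 3.77% held TCATGTG, 3.77% TCACGTG, 14.2% CATGTG, 7.15% CACGTG and 7.81% TGANTCA. The other motifs searched were ACAAAG (18.7% of windows) and ACAATG (12.6%) for Sox factors, TTGCNNAA (10.8%) for C/EBP and TTCNNNGAA (8.3%) for STAT. The 6 windows held ACAAAG in Gpnmb and Oca2, TTGCNNAA at both starts of Trpm1 and none of TTCNNNGAA. A match describes letters in a window and is neither a bound site nor a cause.

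Accessibility of these genes was higher in the knockout lines at many regions and lower at few. Of 88 tested regions, 31 were separated upward, meaning that all 4 comparisons of a knockout line with a wild-type line gave a higher value in the knockout line with an adjusted p under 0.05 (edgeR quasi-likelihood test on 8 libraries, Benjamini-Hochberg over 140329 regions). That was 35.2% of the tested regions, against 7.64% of all tested regions, and 3 regions (3.41%, against 7.41%) were separated downward. Oca2 supplied 13 of the 31, Gpnmb 6, Slc45a2 and Trpm1 3 each, Mlana and Slc24a5 2 each, and Pmel and Slc24a4 1 each. In all 8 leave-one-out fits, each without 1 library, 22 of the 34 separated regions remained separated. At 45 of 89 regions (50.6%, against 13.6% of all) the lowest knockout library exceeded the highest wild-type library, and at 3 (3.37%, against 12.1%) the order was the reverse. A deposited peak was present in all 4 knockout libraries and no wild-type library at 8 regions (8.99%, against 0.45%): 4 of Oca2, 2 of Mlana and 1 each of Slc45a2 and Trpm1. The reverse was found at 0 of the 89 regions, against 6.61% of all, although each of the 4 wild-type libraries held more peaks than any knockout library.

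With the line as the unit, 2 against 2, the test of genotype called 0 of 88 regions (edgeR, 0% of all regions called), with no adjusted p below 0.143. Without adjustment, 27 regions with a p under 0.05 were higher in the knockout lines (8.27% of all regions were) and 4 were lower (8.64%). A DESeq2 Wald test on the same line sums called 20 regions (4.83% of all regions were) and limma-voom, in which the line was a random block, called 0 (0% of all). The log2 fold change was positive at 67 of 88 regions (76.1%, against 46.5% of all), with a median of 1.05 against -0.09 for all tested regions. The genotype statements below therefore give values, and the tests quoted are those between lines, which measure a difference against the spread of 2 libraries of a line.

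In the fit of 8 libraries, comparisons across genotype called more of these regions upward than downward. Line 112 over 119 had 45 upward and 7 downward (22.2% and 23.5% of all regions), 112 over 73 had 48 and 9 (23.8% and 26.1%), 113 over 119 had 51 and 11 (30.2% and 28.8%), and 113 over 73 had 50 and 8 (25.8% and 26.5%). These 4 share lines, so they are not independent. Within a genotype, 112 over 113 had 4 upward and 18 downward (8.24% and 15.6%), and 119 over 73 had 23 and 14 (27.5% and 29.4%).

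**Figure D1:**
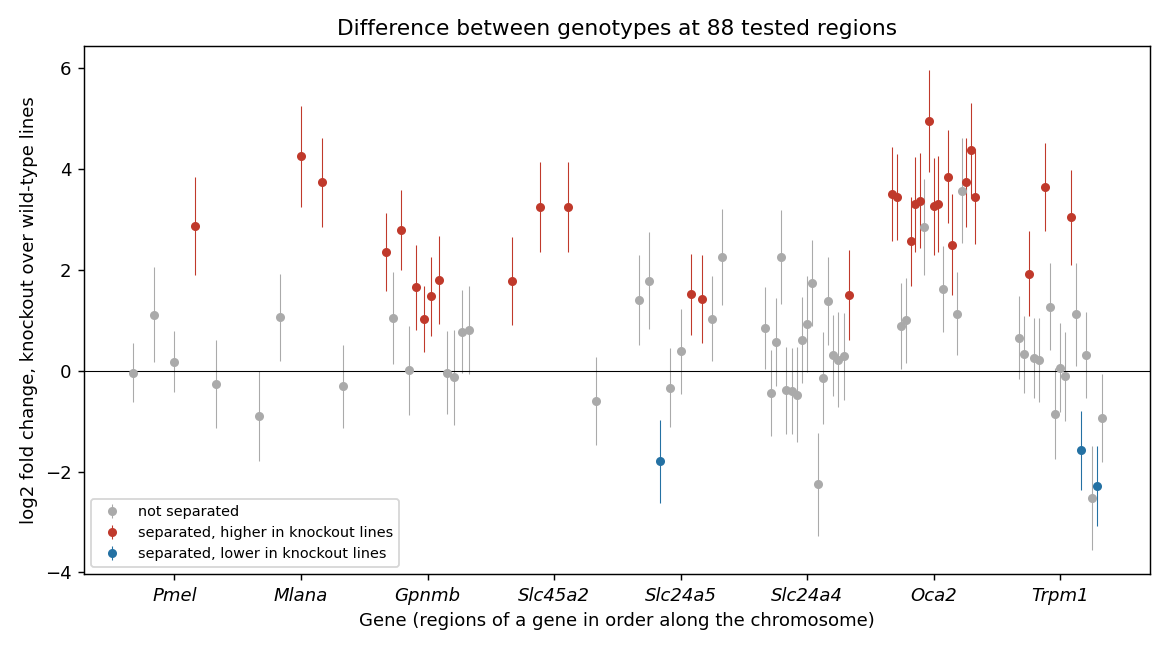
log2 fold change of the knockout over the wild-type lines (y axis, with standard error) at the 88 tested regions, grouped by gene on the x axis in chromosome order. Separated regions are red when higher and blue when lower in the knockout lines. The 19 Oca2 regions lie between 0.89 and 4.95, and the 3 blue points belong to Slc24a5 and Trpm1.

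Counts were also summed over all regions of a gene, giving 1 value a gene in CPM of the gene-sum table. This table was scaled on its own, so its CPM and fold changes place the lines somewhat differently from those of single regions. Of the 8 genes, 4 were separated upward (Mlana, Gpnmb, Slc45a2 and Oca2; 4.86% of 17961 genes were) and 0 downward (7.15%). The genotype test called 0 of the 8 (0% of all genes), while a DESeq2 Wald test (2.38% of all genes) and limma-voom (1.28%) each called 3, Mlana, Slc45a2 and Oca2. At an unadjusted p under 0.05 the same 4 genes were higher (3.28% of all genes were) and none was lower (6.16%). Calls between lines counted 5 genes upward and 0 downward for 112 over 119 (22.9% and 25.5% of all genes), 6 and 0 for 112 over 73 (27.1% and 24%), 6 and 1 for 113 over 119 (27% and 30.1%) and 7 and 0 for 113 over 73 (25.6% and 25.8%). The counts were 1 and 1 for 112 over 113 (22.8% and 16.6%) and 4 and 1 for 119 over 73 (29.9% and 26.7%). Levels of different genes are compared per kb of region. In line 112 Pmel had the highest level at 29.7 CPM per kb and Gpnmb followed at 27.4, whereas Oca2 stood at 10.03 and Slc24a4 was lowest at 7.24. In line 73 Pmel was again highest at 35.1 CPM per kb, Trpm1 followed at 9.30, and Oca2 was lowest at 1.119. The place of Pmel rests on Pmel_1 and Pmel_3, which cover the starts of neighboring genes. The other 3 regions held 11.1 CPM per kb in line 112 and 6.56 in line 73, on the scale of the single regions. These values lie below those of Gpnmb in line 112 and of Trpm1 in line 73, which are on the gene-sum scale.

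**Figure D2:**
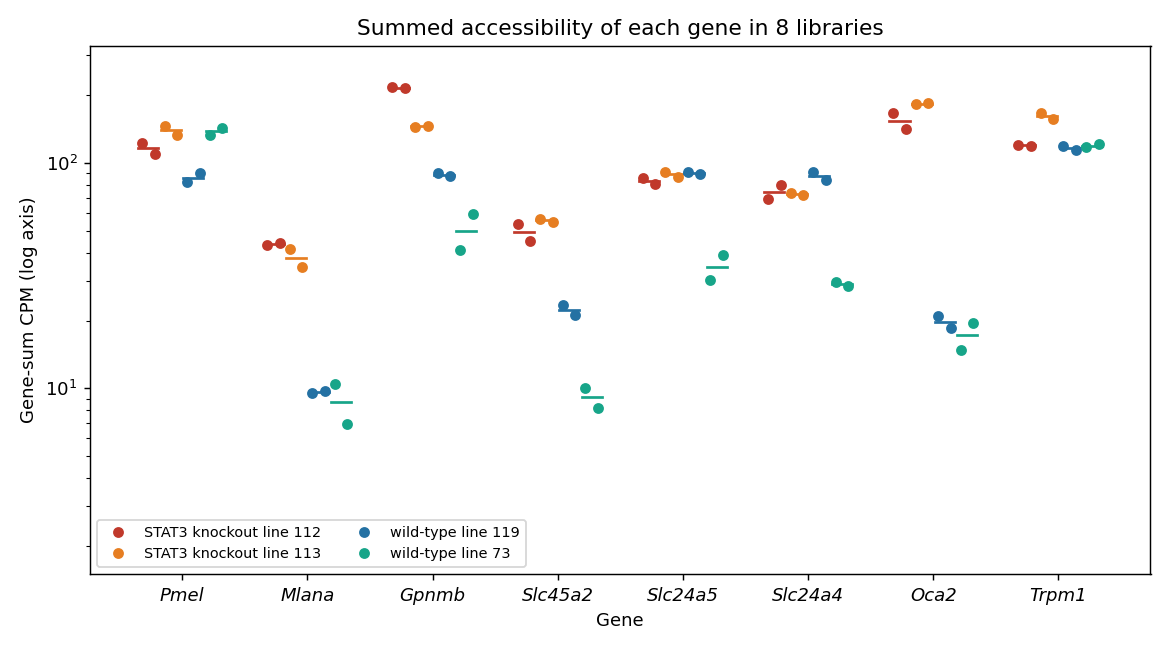
Gene-sum CPM (log axis) of the 8 genes in the 8 libraries, as points, with the mean of each line as a bar. The knockout lines stand above both wild-type lines for Mlana, Gpnmb, Slc45a2 and Oca2, whereas Slc24a5 and Slc24a4 of line 119 (90.1 and 87.4 CPM) lie near the knockout lines and only line 73 is low.

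Pmel encodes the amyloid-forming protein of the melanosome fibrils, and its gene sum did not separate the genotypes. The sums were 123 and 110 CPM in line 112, 146 and 133 in 113, 81.9 and 90.1 in 119 and 133 and 142 in 73. Line 73 thus lay among the knockout lines and line 119 below them. The log2 fold change of genotype was 0.20 (SE 0.32, adjusted p = 0.937). The span that RefSeq gives Pmel, chr10:128695888-128720238, also covers Cdk2 and reaches the end of Rab5b, and the 2 strongest regions in it lie over the starts of these neighbors. Pmel_1, chr10:128696139-128696668, covers the start of Rab5b and Pmel_3, chr10:128704404-128705906, that of Cdk2, so neither can be assigned to Pmel alone. Pmel_2 lies inside Cdk2 and Pmel_5 inside the neighbor Dgka. Without Pmel_1 and Pmel_3, the other 3 regions held 11.1 and 11.6 CPM per kb in lines 112 and 113. In lines 119 and 73 these 3 held 5.50 and 6.56, on the scale of the single regions, and their sum was not tested. Pmel_1, the region nearest a gene end, had 46.6 and 31.7 CPM in line 112, 63.7 and 63.6 in 113, 31.4 and 33.9 in 119 and 75.8 and 73.3 in 73. The groups overlapped there, with a log2 fold change of -0.04 (SE 0.59, adjusted p = 0.988).

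One Pmel region was separated, Pmel_4 at chr10:128706763-128707263, inside the span and nearer to Cdk2 than to the other end of Pmel. It had 5.82 and 4.93 CPM in line 112, 12.2 and 7.26 in 113, 0.129 and 0.844 in 119 and 1.28 and 2.22 in 73. Each knockout library exceeded each wild-type library. The differences between lines were 1.63 to 4.39 on the log2 scale, with adjusted p from 1.83e-11 to 0.00389, and the genotype adjusted p was 0.175. The region was no longer separated without line 73 replicate 1. No region of the table lay between the end of Pmel_4 and the end of the Pmel span.

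Mlana encodes a small melanosome membrane protein that binds Pmel and is also known as Melan-A or MART-1. Its gene sum was 43.4 and 44.1 CPM in line 112, 41.5 and 34.6 in 113, 9.58 and 9.77 in 119 and 10.5 and 6.94 in 73. The knockout lines averaged 40.9 ± 4.02 CPM and the wild-type lines 9.20 ± 0.672 CPM (SD, n = 2 lines), with no overlap of libraries. The log2 fold change was 2.13 (SE 0.37, adjusted p = 0.174), all 4 comparisons across genotype passed (1.98 to 2.31), and the 2 lines within a genotype differed by 0.20 and 0.14 without passing. This change lay in 2 of the 5 regions, and both had peaks in all 4 knockout and no wild-type library.

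Mlana_3, chr19:29697056-29697821, spans the lower end of the gene. It had 9.78 and 11.1 CPM in line 112, 11.6 and 8.95 in 113, 0.646 and 0.844 in 119 and 0.512 and 0 in 73. The wild-type values rest on 5 and 5 counts in line 119 and on 2 and 0 in line 73, so a fold is given against line 119 only: 3.77 for line 112 and 3.76 for line 113 (log2, adjusted p = 9.54e-11 and 2.44e-11). Mlana_4, chr19:29702793-29703401, inside the gene, was its strongest region, with 20.3 and 15.4 CPM in line 112, 29.0 and 23.0 in 113, 1.42 and 2.03 in 119 and 1.02 and 2.22 in 73. Its differences between lines were 3.39 to 4.00 (adjusted p from 1.93e-15 to 6.99e-11). The other 3 regions, with log2 fold changes of -0.90, 1.06 and -0.31, were not separated, and at each the libraries of the 2 genotypes overlapped.

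Gpnmb encodes a glycoprotein related to Pmel that melanocytes and macrophages carry on melanosomes or lysosomes. Its gene sum was 216 and 216 CPM in line 112, 145 and 146 in 113, 89.8 and 87.3 in 119 and 40.9 and 59.2 in 73. On the gene-sum scale the lines stood in that order with no overlap. Every neighbor in the order differed by the test between lines: 112 over 113 by 0.57 (adjusted p = 0.000544), 113 over 119 by 0.71 (2.09e-05) and 119 over 73 by 0.83 (1.13e-05). The order rests in part on that scale. Among the 12 regions tested singly, line 112 exceeded line 113 at 2 and fell below it at 0. Line 113 exceeded 119 at 6 and fell below it at 1, and line 119 exceeded 73 at 5 and fell below it at 2. The genotype log2 fold change was 1.37 (SE 0.38, adjusted p = 0.298). Gpnmb lies on chromosome 6, whose 8977 tested regions had a median genotype log2 fold change of 0.38 and whose median in line 112 was 0.58 above the mean of the 4 lines. With counts scaled within each chromosome the gene sum remained separated, with a log2 fold change of 0.96, and 3 of its 6 separated regions remained so.

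Of the 12 Gpnmb regions 6 were separated upward and remained so in all 8 leave-one-out fits, and none was separated downward. They lie between 14.9 kb before the start (Gpnmb_1) and 2128 bp behind it (Gpnmb_8), and with chromosome scaling Gpnmb_5, Gpnmb_6 and Gpnmb_8 were no longer separated. Gpnmb_3, chr6:49028007-49028911, 7607 bp before the start, had 42.4 and 38.5 CPM in line 112, 37.8 and 32.2 in 113, 8.79 and 8.61 in 119 and 1.02 and 2.78 in 73. The knockout lines were alike there and line 73 was lowest, with differences across genotype of 2.01 to 4.42 (adjusted p from 6.38e-17 to 2.6e-11). Gpnmb_1, chr6:49020992-49021655, had 36.5 and 22.8 CPM in line 112, 32.6 and 32.9 in 113, 10.1 and 8.27 in 119 and 2.05 and 3.61 in 73. Its differences across genotype were 1.70 to 3.53, and line 73 was again lowest.

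The start itself changed less. Gpnmb_6, chr6:49036302-49036944, which covers the start shown above, had 33.8 and 30.5 CPM in line 112, 29.0 and 31.2 in 113, 15.3 and 14.9 in 119 and 12.0 and 19.2 in 73. The 4 differences across genotype were 0.95 to 1.09 (adjusted p from 1.67e-05 to 0.000218), and neither pair of lines of 1 genotype differed (0.10 and -0.04). All 8 libraries had a peak at this start, with the summit 34 to 176 bases behind it. Gpnmb_8, 2128 bp behind the start, had 7.91 and 8.62, 6.80 and 6.53, 2.71 and 2.36 and 1.54 and 1.67 CPM in lines 112, 113, 119 and 73, and lay under no deposited peak of any library.

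Slc45a2, thought to be a sugar and proton carrier of the melanosome membrane, had gene sums of 53.4 and 44.8 CPM in line 112, 56.5 and 54.6 in 113, 23.3 and 21.1 in 119 and 10.1 and 8.18 in 73. The knockout lines averaged 52.3 ± 4.53 CPM and the wild-type lines 15.7 ± 9.28 CPM (SD, n = 2 lines). The genotype log2 fold change was 1.72 (SE 0.46, adjusted p = 0.29). The knockout lines did not differ by the test (-0.16, adjusted p = 0.358), whereas line 119 exceeded line 73 by 1.28 (4.63e-06).

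Of its 4 regions, the 3 at or near the lower end of the gene were separated upward. Slc45a2_3, chr15:11002934-11003780, inside the gene, was strongest, with 18.9 and 13.9 CPM in line 112, 24.2 and 23.7 in 113, 2.07 and 0.507 in 119 and 2.30 and 3.61 in 73. A peak was present there in all 4 knockout libraries and no wild-type library, and the differences were 2.48 to 4.10 (adjusted p from 4.76e-15 to 5.85e-08). Slc45a2_2, chr15:11000436-11001291, over the gene end itself, had 14.4 and 11.1, 22.7 and 20.6, 2.07 and 1.35 and 2.05 and 1.67 CPM in lines 112, 113, 119 and 73. Slc45a2_1, 310 bp outside that end, differed by 1.15 to 2.48 (adjusted p from 3.13e-07 to 0.00423) and was not separated without line 112 replicate 1 or without line 119 replicate 1. At the other end of the gene Slc45a2_4, chr15:11029684-11030199, had 12.2 CPM in each library of line 119 and between 2.78 and 6.46 CPM in the other 6 libraries, so the 2 ends of 1 gene did not follow the same order of lines.

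Oca2, the protein that carries chloride across the melanosome membrane and raises its pH, showed the largest and broadest difference of the 8 genes. Its gene sum was 167 and 142 CPM in line 112, 182 and 184 in 113, 20.9 and 18.5 in 119 and 14.8 and 19.6 in 73. The knockout lines averaged 168 ± 20.2 CPM and the wild-type lines 18.4 ± 1.79 CPM (SD, n = 2 lines). The log2 fold change was 3.19 (SE 0.30), and its adjusted p of 0.137 was the smallest of all 17961 genes in the genotype test. Comparisons across genotype gave 2.96 to 3.42 (adjusted p from 1.57e-15 to 2.82e-14). The knockout lines differed by -0.24 (0.1) and the wild-type lines by 0.21 (0.329), neither past the threshold.

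Separated regions lay from before the start to beyond the far end of the 297 kb gene, but not evenly. Between Oca2_2 and Oca2_7, which lie 1940 and 146094 bp behind the start, no region was separated in every leave-one-out fit. All 19 regions had a log2 fold change above 0, from 0.89 to 4.95 with a median of 3.30, and 13 were separated, 9 of them in all 8 leave-one-out fits. At 17 regions the lowest knockout library exceeded the highest wild-type one. A peak was called in at least 1 library of line 112 at 8 regions and of line 113 at 13, but at 1 region in line 119 and at 0 in line 73. The wild-type lines had few counts at most of these regions. A peak of any library lay at 13 of the 19 regions, and these peaks came almost only from knockout lines. The shared sign may thus be partly fixed by how regions came to be listed, and it is not independent support for a difference.

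No region lay within 1 kb of the RefSeq start of Oca2, and the nearest, Oca2_2 at chr7:56241699-56242535, 1940 bp behind it, was also the strongest of the gene. It had 22.1 and 15.7 CPM in line 112, 35.1 and 23.0 in 113, 1.29 and 2.195 in 119 and 2.05 and 3.61 in 73. Its differences across genotype were 2.76 to 4.08 (adjusted p from 8.42e-16 to 3.17e-09). Deep in the gene, Oca2_9 at chr7:56390965-56392205 had the largest log2 fold change of genotype of all 88 regions, 4.95 (SE 1.01, adjusted p = 0.143). It had 14.9 and 8.62 CPM in line 112, 19.9 and 17.7 in 113, 0.388 and 1.01 in 119 and 0.256 and 0.278 in 73. In counts these were 64 and 28, 88 and 73, 3 and 6, and 1 and 1, so a fold between lines is given against line 119 only, 4.13 for line 112 and 4.77 for line 113.

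Oca2_13, chr7:56421777-56422338, also inside the gene, had 20.02 and 8.31 CPM in line 112, 12.9 and 22.0 in 113, 1.16 and 0.844 in 119 and 0.512 and 1.95 in 73. The replicates of each knockout line were far apart there, and both still lay above all wild-type libraries. Oca2_18, chr7:56547446-56548079, 10928 bp beyond the gene, had 16.8 and 12.6, 19.5 and 20.3, 0.776 and 0.675 and 0.512 and 1.39 CPM in lines 112, 113, 119 and 73. Its differences across genotype were 3.95 to 4.72 (adjusted p from 7.47e-16 to 4.68e-11). At Oca2_14 both libraries of line 73 had 0 counts, and at Oca2_5 and Oca2_14, the separated regions of fewest counts, 6 and 4 of the 8 single libraries each ended the separation when left out. Oca2_6 lost it without line 113 replicate 2, and Oca2_11 without line 119 replicate 1 or line 73 replicate 1. The regions that did not separate included Oca2_3, with 3.49 to 6.77 CPM in the knockout and 1.81 to 4.10 CPM in the wild-type libraries, and Oca2_15, where no library exceeded 1.54 CPM.

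**Figure D3:**
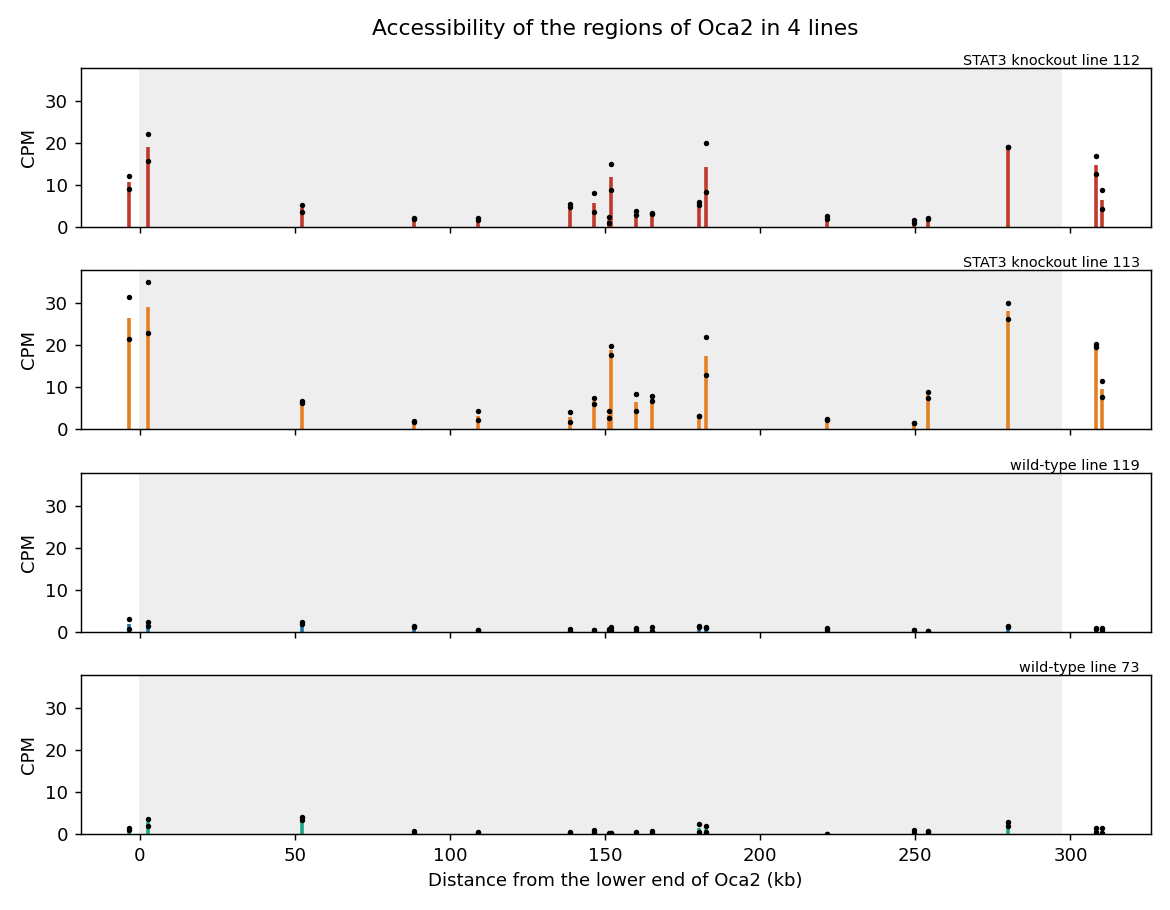
CPM of the 19 Oca2 regions (y axis) against the distance of their midpoints from the lower end of the gene in kb (x axis), 1 panel a line, with bars for the line and points for its 2 libraries, and the gene span shaded. In the knockout panels regions from before the start to beyond the far end stand out, whereas no library of lines 119 and 73 exceeds 4.10 CPM at any region.

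Slc24a5, a potassium-dependent sodium/calcium exchanger of the melanosome that is known from the golden zebrafish and from human skin color, differed by line more than by genotype. Its gene sum was 86.0 and 80.7 CPM in line 112, 91.2 and 86.9 in 113, 90.7 and 89.5 in 119 and 30.2 and 38.9 in 73. In these sums lines 112, 113 and 119 did not differ from each other by the test (adjusted p = 0.477 to 0.913). Each exceeded line 73, by 1.28, 1.37 and 1.39 on the log2 scale. At the 9 regions tested singly, whose scale differs, line 113 exceeded line 119 at 6 and fell below it at 1. Line 112 exceeded line 113 at 0 and fell below it at 3. The genotype log2 fold change was 0.46 (SE 0.46, adjusted p = 0.874).

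The region over the Slc24a5 start shown above, Slc24a5_6 at chr2:125067322-125068623, had 27.7 and 24.0 CPM in line 112, 33.3 and 34.6 in 113, 17.6 and 17.7 in 119 and 2.05 and 3.61 in 73. It was separated, with the difference between line 112 and line 119 the smallest (0.56, adjusted p = 0.0253) and that between line 113 and line 73 the largest (3.59, 1.1e-15). Line 119 itself exceeded line 73 by 2.64 (1.69e-10). Peak summits lay from -70 to 20 bases of the start in the libraries of lines 112, 113 and 119. This range holds the E-box match and the TGATTCA match to the AP-1 pattern. Line 113 had 1 further peak at -555, and no library of line 73 had a peak at this start. Slc24a5_7, chr2:125072908-125073745, 4781 bp behind the start, was also lowest in line 73, with 16.8 and 10.2, 12.9 and 11.1, 6.59 and 8.27 and 3.07 and 1.11 CPM. The separation at Slc24a5_6 ended without line 112 replicate 1 or either library of line 119, and that at Slc24a5_7 ended without these or line 113 replicate 1.

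One region before the gene went the other way. Slc24a5_3, chr2:125029684-125030314, 37813 bp before the start, had 4.42 and 4.00 CPM in line 112, 4.53 and 5.81 in 113, 19.0 and 19.9 in 119 and 10.8 and 15.3 in 73. All wild-type libraries lay above all knockout libraries, by 1.33 to 2.19 on the log2 scale (adjusted p from 2.46e-08 to 0.000261). Slc24a5_10, chr2:125102399-125103327, which lies inside the neighbor Myef2, had the smallest genotype p of the gene (adjusted p = 0.244). It had 2.33 and 1.85, 8.38 and 4.84, 1.55 and 1.01 and 0.512 and 0.278 CPM in lines 112, 113, 119 and 73, and was not separated because line 112 did not differ from line 119 by the test (0.68, adjusted p = 0.305). Slc24a5_9, the member region not tested, had at most 2.197 CPM in any library.

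Slc24a4, an exchanger of the same family that is known for enamel formation and for links to pigmentation, resembled Slc24a5 in its order of lines. Its gene sum was 69.2 and 80.0 CPM in line 112, 73.4 and 72.0 in 113, 90.9 and 83.9 in 119 and 29.8 and 28.5 in 73. Line 119 exceeded line 113 by 0.27 (adjusted p = 0.0493) and exceeded line 73 by 1.59 (1.28e-10), and the genotype log2 fold change was 0.31 (SE 0.51, adjusted p = 0.937). At its start, Slc24a4_1, chr12:102128472-102129740, had 9.08 and 9.23 CPM in line 112, 17.4 and 16.5 in 113, 6.98 and 7.60 in 119 and 7.94 and 6.39 in 73. Line 113 alone exceeded the wild-type lines by the test (1.22 and 1.24), and the other 3 lines lay between 6.39 and 9.23 CPM. No peak was called at this start in line 73.

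Beyond the far end of Slc24a4, Slc24a4_17 at chr12:102271243-102271910 was its only separated region, with 10.7 and 6.46 CPM in line 112, 6.80 and 7.74 in 113, 4.78 and 3.38 in 119 and 1.79 and 0.833 in 73. The separation ended when any of 4 single libraries was left out (line 112 replicate 1, either library of line 113, or line 119 replicate 2). Slc24a4_4, chr12:102183177-102183722, the region of smallest genotype p (adjusted p = 0.239), had 2.33 and 2.77, 11.6 and 5.56, 1.94 and 0.844 and 0.768 and 0.833 CPM. Inside the gene 2 further regions, chosen after their values were seen, were high in line 119. Slc24a4_11 had 8.01 and 7.43 CPM there and 0.453 to 1.28 CPM in the other 6 libraries. Slc24a4_7 had 20.3 and 19.3 CPM in line 119, 12.7 and 13.3 in 113, 3.26 and 4.93 in 112 and 1.79 and 5.00 in 73.

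**Figure D4:**
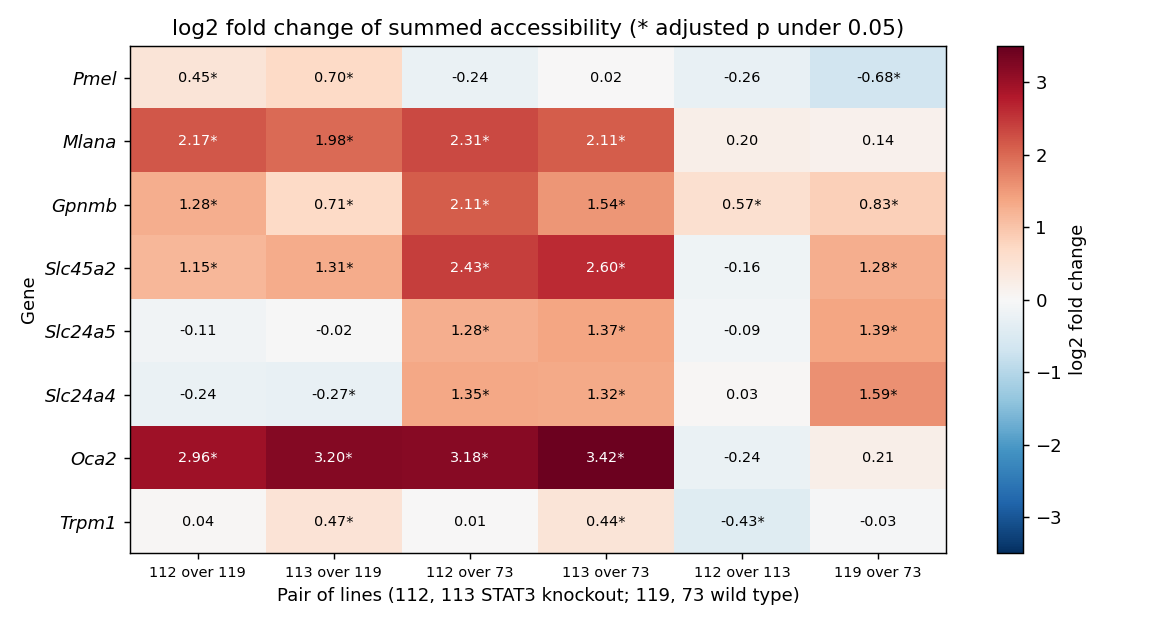
log2 fold change of the gene sums (color and number) for the 8 genes (rows) in 6 pairs of lines (columns), with an asterisk for an adjusted p under 0.05. The 4 columns that cross genotype are all called for Mlana, Gpnmb, Slc45a2 and Oca2, and the column of 119 over 73 shows 1.39 for Slc24a5 and 1.59 for Slc24a4.

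Trpm1, a cation channel of melanocytes and of retinal bipolar cells, had regions that changed in opposite directions within 1 gene. The gene sum was 121 and 119 CPM in line 112, 166 and 157 in 113, 119 and 114 in 119 and 117 and 121 in 73. Line 113 was the only line that differed from any other, and the genotype log2 fold change was 0.24 (SE 0.29, adjusted p = 0.905). Of 17 regions 3 were separated upward and 2 downward, so the sum does not describe the gene.

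Of the 2 Trpm1 starts shown above, only the second lay under a region, so accessibility at the first was not read. No region lay within 1 kb of the first start, the nearest being Trpm1_2, 1796 bp behind it, where the 4 knockout libraries, at 9.54 to 21.1 CPM, overlapped the wild-type libraries, of which the lowest had 9.46 CPM (log2 fold change 0.32, SE 0.76). The second start, 31.6 kb further along, is covered by Trpm1_6, chr7:64184815-64185740. This region had 16.5 and 15.7 CPM in line 112, 43.5 and 29.5 in 113, 0.776 and 2.36 in 119 and 3.33 and 2.22 in 73. Its differences across genotype were 2.52 to 4.60 (adjusted p from 1.58e-17 to 5.4e-08), the genotype log2 fold change was 3.64 (SE 0.87, adjusted p = 0.143), and the separation held in all 8 leave-one-out fits. Line 113 also exceeded line 112 by 1.18. Peaks with summits from -187 to 31 bases of this start were present in all 4 knockout libraries and in no wild-type library.

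Trpm1_3, chr7:64159028-64160271, 5193 bp behind the first start, was the strongest region, with 17.7 and 13.2 CPM in line 112, 28.8 and 35.6 in 113, 8.92 and 10.6 in 119 and 1.54 and 3.89 in 73. Its separation ended without line 112 replicate 1 or either library of line 119. Trpm1_11, chr7:64227484-64227986, had 8.15 and 3.69, 15.6 and 17.2, 1.16 and 0.844 and 1.54 and 1.95 CPM in lines 112, 113, 119 and 73, and its separation ended without line 112 replicate 1.

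The downward regions of Trpm1 lay in the far part of the gene and behind it. Trpm1_16, chr7:64276784-64277381, 7012 bp beyond the gene end, had 3.03 and 4.62 CPM in line 112, 6.34 and 6.05 in 113, 19.3 and 19.1 in 119 and 28.9 and 29.2 in 73. The wild-type lines exceeded the knockout lines by 1.62 to 2.95 on the log2 scale (adjusted p from 2.83e-12 to 5.51e-07), and the separation held in all 8 leave-one-out fits. Trpm1_13, chr7:64239101-64240575, inside the gene, fell by 0.78 to 2.34 in the same comparisons, and its separation ended without line 113 replicate 2 or line 119 replicate 1. Trpm1_15, chosen after its values were seen, had 16.9 and 15.6 CPM in line 73 and at most 2.42 CPM in the other 6 libraries.

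**Figure D5:**
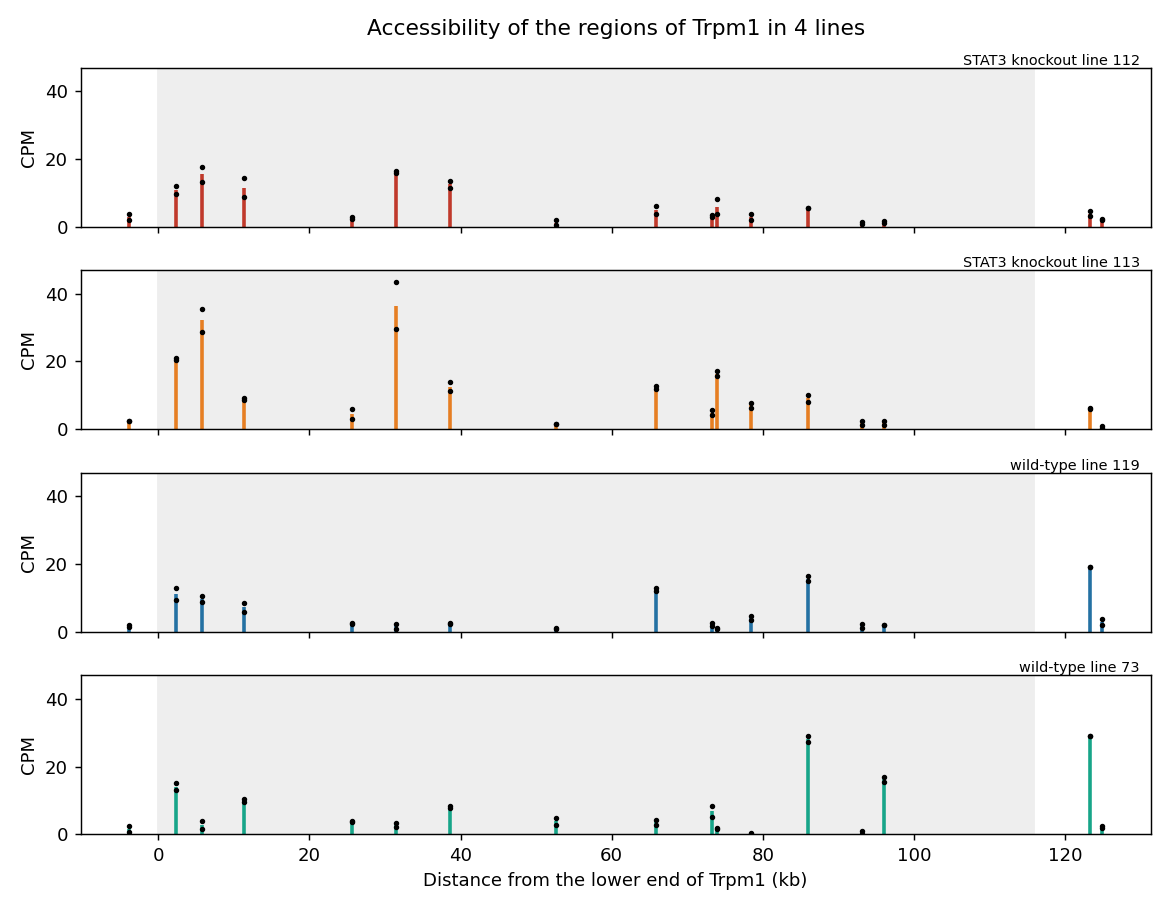
CPM of the 17 Trpm1 regions (y axis) against the distance of their midpoints from the lower end of the gene in kb (x axis), 1 panel a line, with bars for the line and points for its 2 libraries, and the gene span shaded. The bar at the second start is high in the knockout panels (16.1 and 36.5 CPM) and low in the wild-type panels (1.57 and 2.78 CPM), while the bar beyond the gene end is high in the wild-type panels (19.2 and 29.1 CPM).

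Trpm1 is also the host gene of miR-211, a small RNA of pigment cells that shares its seed, the bases that pair with targets, with miR-204, whose host is the relative Trpm3. Both were chosen after the values of Trpm1 were seen. The mature sequences, from RefSeq, have bases 2 to 8 in capitals.
miR-211-5p: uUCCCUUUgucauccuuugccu
miR-204-5p: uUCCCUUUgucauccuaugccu
The hairpin of miR-211, chr7:64205806-64205911, lies downstream of the second start. The nearest region, Trpm1_8, 334 bp away, had 0.466 to 1.85 CPM in the knockout lines, 0.844 and 1.03 in line 119 and 4.87 and 2.78 in line 73, and was not separated. The gene sum of Trpm3, over 49 regions, was 229 CPM in line 112, 255 in 113, 240 in 119 and 145 in 73, and was not separated.

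Among the 8 genes, Oca2 and Mlana had the most similar profiles of log2 gene sums over the 8 libraries (Pearson r = 0.97), followed by Slc24a5 and Slc24a4 (0.966). These are descriptions over 8 libraries of 4 lines, in which the genes share the depth of each library. The gene sums most like Oca2 among all genes tested were Bmp15, Bmp7 and Rab27a (r = 0.993 each). Those most like Gpnmb were Bcl11a (0.995), Gpr143 (0.994) and Ldhb (0.993), those most like Mlana were Eefsec (0.995), Ptgds (0.993) and Git1 (0.992), and those most like Slc45a2 were Paqr6 (0.996), Gad1 (0.995) and Sox11 (0.995). Slc24a5 was closest to Cabyr (0.997), Csf2ra (0.996) and Arap2 (0.995), and Slc24a4 to Adamts17 (0.997), Col4a4 (0.995) and Chdh (0.995). Pmel was closest to Get4 (0.994), Timm21 (0.99) and Zfand2b (0.99), and Trpm1 to Denn2b (0.989), Gm5150 (0.988) and Stx6 (0.984).

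Other genes of the pigment pathway were read in 5 lists. For comparison, 7.64% of all tested regions were separated upward and 7.41% downward, as were 4.86% and 7.15% of all gene sums. For the melanin synthesis enzymes Tyr, Tyrp1 and Dct, 11 of 31 tested regions were separated upward (35.5%) and 0 downward. At the start of Tyr the values were 9.44, 17.8, 0.706 and 0.940 CPM in lines 112, 113, 119 and 73, and at the start of Dct 22.8, 62.5, 3.79 and 0.534 CPM. For 8 transcription factors and receptors of the melanocyte lineage, 43 of 152 regions were separated upward (28.3%) and 4 downward (2.63%). The gene sums of Mitf, Pax3 and Kit were separated upward. Most of the upward regions lay at Mitf and Pax3. The 4 downward regions lay at Mitf (log2 fold changes -1.86 and -2.43), Pax3 (-1.38) and Lef1 (-4.44). Mitf lies on chromosome 6, whose median genotype log2 fold change was 0.38. Of the 3 RefSeq starts of Mitf, 1 was separated: its region, chr6:97991085-97992009, had 14.3, 17.9, 0.725 and 0.662 CPM. The region at the first start, chr6:97806694-97807718, had 24.8, 36.1, 18.8 and 39.1 CPM, highest in wild-type line 73, and that at the middle start 4.09, 2.59, 1.17 and 2.103 CPM.

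The 18 genes of melanosome biogenesis and transport went both ways, with 17 of 134 regions upward (12.7%) and 20 downward (14.9%). Gene sums of Gpr143, Rab27a, Rab38 and Mlph were separated upward and those of Rab32, Hps1 and Lyst downward. Rab27a and Mlph, which tether melanosomes to the cell's actin motors, had start regions at 10.5, 19.2, 1.15 and 1.34 CPM and at 20.9, 27.3, 5.97 and 3.99 CPM. Hps1, a subunit of a complex for lysosome-related organelles, had 14.5, 13.3, 23.0 and 45.1 CPM. Of 8 other melanosome membrane transporters, 4 of 72 regions were separated upward and 4 downward (5.56% each), with Slc45a3 the only gene sum separated. For 13 relatives of the 8 genes that are known mainly outside pigment cells, 9 of 166 regions were separated upward (5.42%) and 15 downward (9.04%), and no gene sum was separated in either direction.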

How the data were processed

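ATAC-seq was read in 8 libraries of 4 mouse melanoma lines. Per the submitters' processing notes, Bowtie2 2.2.4, Picard 1.118, MACS2 2.1.1.20160309 and the mm10 (GRCm38) build were used; how reads were counted is not given in the sources used here. The authors deposited 1 table of raw counts per region over all libraries, and a peak list per library with a score, a fold enrichment (ratio) and −log10 of p and q at each summit, which are the authors' own values. 87.8% of regions overlap a peak by at least 1 bp (bedtools 2.31.1). Regions were named by RefSeq genes (GRCm38.p6).

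The counts were tested with edgeR 4.0.16 (R 4.3.3), quasi-likelihood, TMM scaling and filterByExpr (minimum count 10, minimum total 15), over all regions, adjusted by Benjamini-Hochberg, threshold 0.05. Genotype was tested with the 2 libraries of a line summed, and pairs of lines with a mean per line on 8 libraries. CPM uses TMM library sizes, computed separately for regions and for gene sums. Sums per gene were fitted alike. DESeq2 1.42.0 and limma 3.58.1 were alternatives, and the scripts were tested on simulated data. Replicate libraries of a line differed by more than counting noise (chi-square per degree of freedom 1.07 to 1.98), and p-values between lines measure only the spread between 2 libraries. The SEs printed come from the quasi-likelihood fits, and the SDs are over 2 lines.

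Named regions were, for each gene, the region at a start within 1 kb (otherwise nearest a gene end), the strongest, the one of smallest genotype p and at most 3 separated regions of largest change; others are said to be chosen later. The genes, lists and tests were chosen with earlier results of these data known.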

Additional observations from a re-analysis of the deposited data

Results flagged for a closer look

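In a set of 4 libraries of a genotype, 1 library stood apart by more than Dixon's limit in 1 of 68 sets examined, where chance alone gives about 1 in 20. At Slc24a4_4, inside Slc24a4, line 119 replicate 1 had 1.94 CPM, and the other wild-type libraries had 0.768 to 0.844 CPM. The knockout libraries had 2.33 to 11.6 CPM there, so the flagged library still lay below them.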

How the results depend on the processing

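The separated genes (4 upward, 0 downward) became 5 upward with sums over regions overlapping the gene only, which added Slc24a5; the other alternatives run for them gave the same 4 genes. The 31 regions separated upward became 8 with a mean count of at least 50, which left 17 of these regions to test, and 23 to 31 when 1 library was left out; the 3 separated downward became 1 when only regions inside a gene were kept. With a mean count of at least 50 the calls between lines fell, by fewer regions tested, to 15 for 112 over 119 (from 52), 13 for 112 over 73 (57), 15 for 113 over 119 (62), 14 for 113 over 73 (58), 5 for 112 over 113 (22) and 9 for 119 over 73 (37). For 112 over 113, a DESeq2 Wald test called 12, and leaving out 1 library gave 14 (without line 113 replicate 1) to 25.

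The genotype count of 0 regions became 2 among regions overlapping a peak (Oca2_9 and Oca2_18; 0.163% of all regions were called), 20 by a DESeq2 Wald test (4.83%), 39 with libraries as units (22.7%), 37 without line 119 (21.1%) and 20 without line 73 (12.7%). Leaving out 1 library gave 0 to 5, the 5 arising without line 112 replicate 1 (0.453%). Gene sums called for genotype became 1 with library totals (Oca2; 0.373% of all genes), 3 by DESeq2 (2.38%), 4 with libraries as units (12.5%), 3 by limma-voom (1.28%), 6 without line 119 (6.93%), 4 without line 73 (6.52%) and 0 to 1 without 1 library. The median log2 fold change of 1.05 became 1.10 with library totals, 1.00 with a mean count of at least 50, 1.10 in peak regions, 0.95 with chromosome scaling, 1.18 by limma-voom, 1.15 without line 112, 1.72 without line 119, 0.92 without line 73 and 0.99 to 1.16 without 1 library. Apart from the settings that test fewer regions or lines, the cause was not tested.

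Signs turned where values lay near 0. Pmel_1 (-0.04) became 0.02 with library totals, 0.04 in peak regions, 0.15 with chromosome scaling, 0.12 by limma-voom, 0.25 without line 112 and 0.65 without line 73. With 1 library left out it ran from -0.18 (without line 112 replicate 1) to 0.03 (without line 112 replicate 2), and was 0.00 without line 73 replicate 1. The gene sum of Pmel became -0.10 without line 119, and those of Slc24a5 and Slc24a4 became -0.04 and -0.24 without line 73. Replicate numbers do not pair the samples: differences between replicates correlated across lines at -0.037 to 0.004. With libraries as units and a replicate block 36 regions (17.3% of all) and 4 gene sums (8.16%) were called for genotype, and with the replicate block in the fit of lines 31 regions were separated upward and 3 downward.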

Other observations

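The tested regions within 1 Mb of each gene, outside its own, were read after the values of the genes had been seen. Of all tested regions 7.64% were separated upward and 7.41% downward. Around Oca2, 9 of 79 flanking regions were separated upward (11.4%) and 1 downward (1.27%), with a median log2 fold change of 0.08, against a median of 3.30 over the regions of Oca2 itself. Around Gpnmb, 17 of 141 were separated upward (12.1%) and 1 downward (0.709%), with a median of 0.55. Around Mlana, 9 of 113 were upward (7.96%) and 8 downward (7.08%, median -0.26). Around Slc45a2, 9 of 154 were upward (5.84%) and 21 downward (13.6%, median -0.47). Around Trpm1, 12 of 150 were upward (8%) and 10 downward (6.67%), and around Slc24a4, 27 of 169 were upward (16%) and 12 downward (7.1%). Around Slc24a5, 22 of 170 were upward (12.9%) and 12 downward (7.06%), with a median of -0.32. Around Pmel, 7 of 154 were upward (4.55%) and 6 downward (3.9%).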
